A study of Mus musculus with 6 samples.

Results

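Lipid uptake, storage and efflux genes, 10 in all, were followed through a single-cell RNA table of mouse lung, to see which cells hold their transcripts and whether they set apart the fibroblasts often called lipofibroblasts. The genes were taken by symbol and are 10 of the 27998 genes in the table: Lpl, Angptl4, Cd36, Fabp1, Fabp4, Fabp5, Pparg, Plin2, Lipa and Abcg1. Each symbol matched 1 row, and the rule uses no measured value. The study profiled lung cells sorted as Epcam-, CD31- and CD45-, that is, against epithelial, endothelial and leukocyte surface antigens, in droplets, with RNA counted by unique molecular identifiers (UMIs, random tags that mark each captured RNA so that copies of it are not counted again). All mice were SMA-GFP;Tbx4cre;RosaTdTomato, in which smooth muscle actin (SMA) drives GFP and Cre from the Tbx4 gene, active in lung mesenchyme, switches on tdTomato (Tm). Labelled samples number 6: SMA+Tm+ cells, SMA-Tm+ cells and those negative for both reporters (SMA-Tm-), each from normal mice (day 0) and from mice at day 21 of bleomycin, which injures the lung and leads to fibrosis, with 1 sample per gate and day. The labels do not state the number of mice in a sample or the bleomycin dose. The question behind the design is which subtypes the mesenchymal cells of normal and fibrotic lung form.

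The deposited table pools all cells. Barcodes end in a suffix from 1 to 6 that nothing ties to a labelled sample, so days and gates were not compared, the table was treated as 1 pooled sample without replicates, and no p-value was computed. Suffixes are used only as parts of the table. Suffixes 1 to 3 held 86.5 to 102 CPM (UMIs scaled to a common total) of the Y-linked gene Ddx3y and at most 6.31 CPM of Xist, and suffixes 4 to 6 held 1457 to 1927 CPM of Xist and at most 0.566 CPM of Ddx3y, so suffixes also differ in the sex of the mice. After filtering, 9919 cells with 34177581 UMIs remained, with a median of 2699 UMIs per cell and medians of 1783.5 to 3633.5 across suffixes. There were 55 barcode sequences that appeared under more than 1 suffix.

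The 5 classes were drawn with marker genes that are not among the 10. Alveolar macrophages, the resident phagocytes of the airspaces, held UMIs of at least 2 of Krt79, Ear1 and Plet1 (1116 cells, median 4961.5 UMIs). Other leukocytes held Ptprc, which encodes CD45 (3285 cells, 2758 UMIs). Endothelium held 2 or more UMIs of Pecam1 plus Cdh5 (607 cells, 1816 UMIs). Mesenchymal cells held 3 or more UMIs of the collagens Col1a2 plus Col3a1, and were divided into cells with a UMI of Npnt or Slc7a10 (1136 cells, 3089.5 UMIs), here called Npnt or Slc7a10 fibroblasts, and all others (1402 cells, 2809.5 UMIs). A further 276 barcodes met the rules of more than 1 compartment and 2097 met none. Genes that the rules did not use fitted the names: Chil3, an alveolar macrophage product, stood at 4865 CPM in the macrophages and at 24.0 to 249 CPM in the other classes, and Tcf21, a transcription factor of alveolar fibroblasts and a reported lipofibroblast marker, at 543 CPM in the Npnt or Slc7a10 fibroblasts against 118 CPM in other mesenchymal cells. The gates name Epcam-, CD31- and CD45- cells, yet 11.3% of cells were alveolar macrophages and 33.1% other leukocytes by these rules, and 6.12% were endothelium. Of the Npnt or Slc7a10 fibroblasts, 947 carried suffix 4 and 109 suffix 1, so values for this class are mostly those of suffix 4.

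The genes cover the path of fatty acids and cholesterol through a cell. Lipoprotein lipase (Lpl) splits triglyceride of circulating lipoproteins outside the cell, Angptl4 inhibits it, Cd36 takes up long-chain fatty acids, and the fatty acid binding proteins Fabp1, Fabp4 and Fabp5 carry them in the cytosol. Pparg encodes a nuclear receptor that drives fat cell formation and is needed for alveolar macrophages to mature; Plin2 coats lipid droplets, Lipa is the acid lipase of lysosomes, and Abcg1 exports cholesterol. Lipofibroblasts are described as droplet-bearing interstitial fibroblasts of the alveolar wall that supply lipid to type II cells for surfactant, and Plin2, Pparg, Lpl and Fabp genes have been used to recognise them. Alveolar macrophages take up and break down surfactant lipid.

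The genes lie at GENCODE M21 positions on GRCm38: Lpl at chr8:68880491-68907448, Angptl4 at chr17:33773750-33781830, Cd36 at chr5:17781690-17888801, Fabp1 at chr6:71199827-71205023, Fabp4 at chr3:10204088-10208576, Fabp5 at chr3:10012548-10016607, Pparg at chr6:115360951-115490399, Plin2 at chr4:86648386-86670060, Lipa at chr19:34492318-34527474 and Abcg1 at chr17:31057675-31117988. Fabp4 and Fabp5 are thus neighbours on chromosome 3. RefSeq promoter windows (250 bases before to 50 after a start, GRCm38.p6) were matched for 5 of the 10 genes, Cd36, Fabp1, Pparg, Plin2 and Lipa, with 7 windows in all. They were searched on both strands for the hexamer AGGTCA that nuclear receptors such as the product of Pparg read, and for 2 direct repeats of it with 1 base between them, AGGTCANAGGTCA and the looser AGGNCANAGGNCA; the hexamer is contained in the first repeat. The 2 stretches below are shown because Fabp1 and Plin2 turned out to be, respectively, the gene most limited to alveolar macrophages and a gene that also set apart the fibroblasts. The capitals mark the match, which lies on the strand opposite to the gene in both.
Fabp1, chr6:71199767-71199826, plus strand: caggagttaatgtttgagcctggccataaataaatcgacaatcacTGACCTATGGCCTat
Plin2, chr4:86670245-86670304, minus strand: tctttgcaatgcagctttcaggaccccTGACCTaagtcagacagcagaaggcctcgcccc
The Fabp1 window held the looser repeat, which 125 of 32851 windows held (0.381%). The hexamer alone was in 16.3% of all windows and in windows of Cd36, Fabp1, Plin2 and Pparg, and the strict repeat, in 0.0396% of all windows, was in none of the 7. These are matches of letters and not evidence of binding.

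Alveolar macrophages held most of the transcripts. For 8 of the 10 genes the level in alveolar macrophages was at least 2-fold above every other class, where 5.82% of 11293 genes measured at 10 CPM or more in any class met the same condition. Cd36 was highest in endothelium by that rule (8.59% of genes), and Angptl4 was not separated by 2-fold from the next class. No gene of the 10 was highest by 2-fold in the Npnt or Slc7a10 fibroblasts (2.57% of genes), in other leukocytes (3.98%) or in other mesenchymal cells (2.09%). Set against other leukocytes alone, all 10 were higher by 2-fold in the macrophages, where 20.4% of 8576 genes were higher and 12.3% lower. That class is a mixture, in which 1751 of 3285 cells were B, T or NK cells. Against nonclassical monocytes, a subclass described below, the alveolar macrophage level was 0.721-fold (0.481 to 1.13) for Pparg and 0.992-fold (0.738 to 1.36) for Fabp4. Against C1q macrophages it was 0.475-fold for Fabp5 and 1.68-fold for Lipa. Lpl, Fabp1, Plin2 and Abcg1 stayed above both subclasses by 2-fold. All levels below are CPM from UMIs summed over the cells of a class, and all intervals are exact at 95% and cover counting error only. Since CPM is a share of a class's RNA, and the macrophages have more UMIs per cell, shares of cells are also given after thinning each cell to 1000 UMIs.

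**Figure D1:**
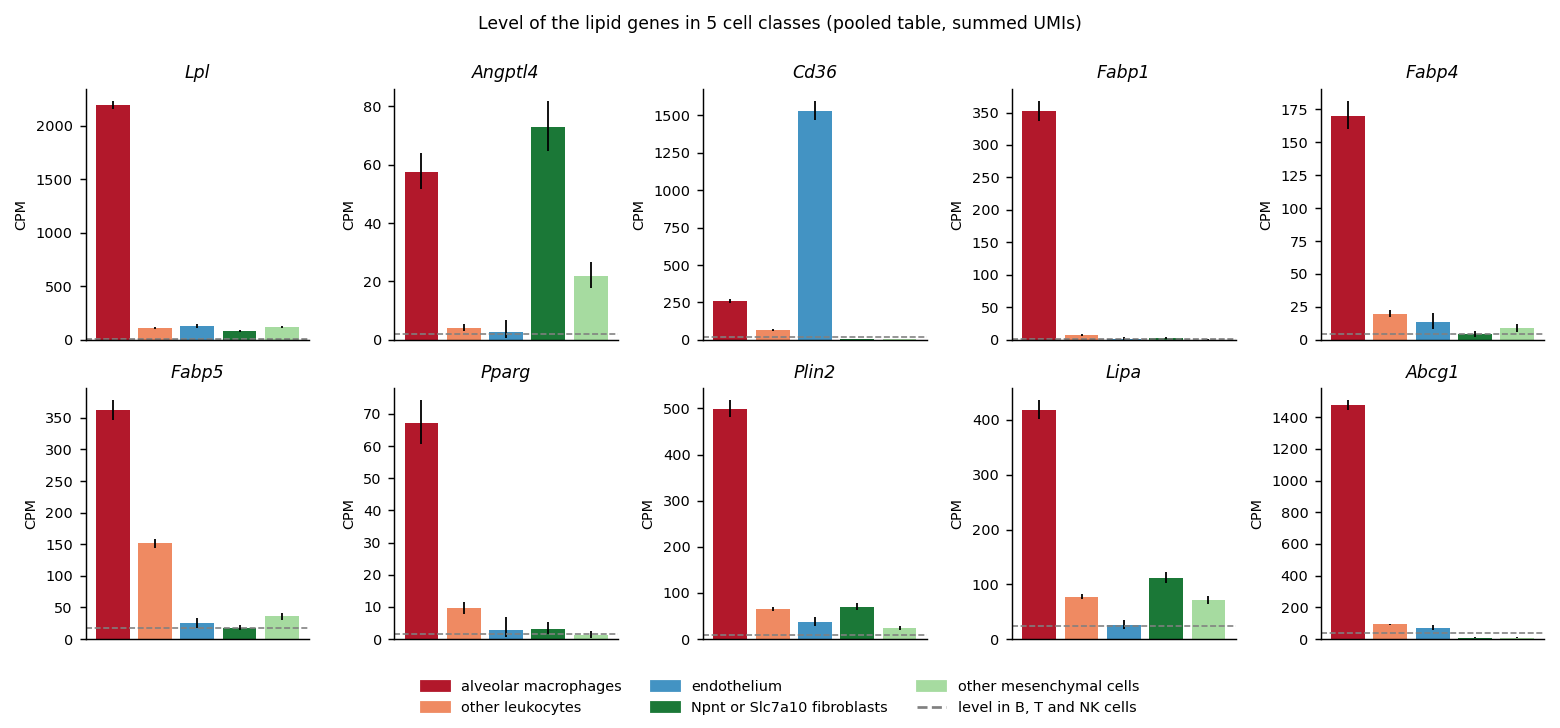
Level of each gene (CPM, linear axes that start at 0) in the 5 classes, with exact 95% Poisson intervals as black lines and the level in B, T and NK cells as a dashed line. Alveolar macrophages are highest for 8 genes, endothelium for Cd36 (1532 CPM), and Npnt or Slc7a10 fibroblasts and alveolar macrophages are close for Angptl4 (72.9 and 57.6 CPM).

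Lpl stood at 2194 CPM (2155 to 2232) in alveolar macrophages, 111 in other leukocytes, 128 in endothelium, 80.5 (71.9 to 89.8) in Npnt or Slc7a10 fibroblasts and 118 (108 to 129) in other mesenchymal cells. The macrophage level was 17.1-fold (14.8 to 19.8) above the next class, endothelium, and 27.3-fold above the Npnt or Slc7a10 fibroblasts. Of the macrophages, 98.8% held an Lpl UMI, with a median of 10 UMIs per cell, against 18.6% of Npnt or Slc7a10 fibroblasts and 25.1% of other mesenchymal cells. Alveolar macrophages were 16.8% of all UMIs of the table and held 79.9% of the Lpl UMIs, and the Npnt or Slc7a10 fibroblasts, 11.6% of all UMIs, held 2.03%. Lpl is thus mainly a macrophage transcript in this table. The order of the other 4 classes depended on the cells counted: without suffix 4 Lpl stood at 53.9 CPM in other leukocytes and 50.8 in Npnt or Slc7a10 fibroblasts, and the 3094 other leukocytes with no macrophage marker held 44.5 CPM.

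Angptl4, the inhibitor of that lipase, was high in the Npnt or Slc7a10 fibroblasts as well as in the alveolar macrophages. It stood at 72.9 CPM (64.8 to 81.8) in Npnt or Slc7a10 fibroblasts, 57.6 (51.6 to 64.2) in alveolar macrophages, 21.96 (17.8 to 26.8) in other mesenchymal cells, 4.09 in other leukocytes and 2.67 in endothelium. The fibroblast level was 1.27-fold (1.08 to 1.49) that of the macrophages, under the 2-fold rule. Most of its UMIs lay in these 2 classes, 34.1% in the fibroblasts and 38.9% in the macrophages. Cd36 was an endothelial transcript first, at 1532 CPM (1470 to 1596) in endothelium, 257 in alveolar macrophages and 65.9 in other leukocytes, and only 5.03 and 4.08 CPM in the 2 mesenchymal classes. The endothelial level was 5.96-fold (5.58 to 6.36) above that of the macrophages.

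The 3 binding proteins differed from each other. Fabp1 was the gene most limited to alveolar macrophages, at 352 CPM (337 to 368) there against 7.49 in other leukocytes and 0.453 to 2.26 in the other 3 classes; the macrophages held 91.0% of its UMIs. Fabp4 stood at 170 CPM in alveolar macrophages and 19.8 in other leukocytes, and at 13.3, 4.28 and 8.83 CPM in endothelium, Npnt or Slc7a10 fibroblasts and other mesenchymal cells. Fabp5 stood at 362 CPM in alveolar macrophages and 151 in other leukocytes, a ratio of 2.39 (2.25 to 2.55), and at 24.7, 18.1 and 35.8 CPM in the other 3 classes. Fabp5 rested most on a single suffix: other leukocytes of suffix 4 held 1064 CPM and those of the other suffixes 18.0 to 53.2 CPM. Alveolar macrophages of suffix 4 held 533 CPM, so within that suffix the direction was the reverse of the pooled ratio. Without suffix 4 the level was 38.1 CPM in other leukocytes and 234 CPM in alveolar macrophages. Fabp5 also has processed pseudogene copies in the mouse genome, and the labels do not state how reads shared with them were counted.

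Pparg was at 67.2 CPM (60.7 to 74.2) in alveolar macrophages, 9.53 in other leukocytes and 1.13 to 3.02 CPM in endothelium and both mesenchymal classes. Its UMIs lay to 67.6% in alveolar macrophages and to 2.10% in Npnt or Slc7a10 fibroblasts. Plin2 stood at 499 CPM (481 to 518) in alveolar macrophages, 70.2 (62.2 to 78.9) in Npnt or Slc7a10 fibroblasts, 65.8 in other leukocytes, 37.4 in endothelium and 24.2 (19.9 to 29.3) in other mesenchymal cells; the fibroblasts held 6.27% of its UMIs and the macrophages 64.4%. Lipa followed the same order at the top, at 419 CPM (402 to 436) in alveolar macrophages, 112 (102 to 123) in Npnt or Slc7a10 fibroblasts, 77.3 in other leukocytes, 71.1 in other mesenchymal cells and 26.0 in endothelium. The cholesterol exporter Abcg1 was at 1474 CPM (1443 to 1506) in alveolar macrophages, 92.0 in other leukocytes, 71.4 in endothelium and under 10 CPM in both mesenchymal classes (8.80 and 7.47). Other leukocytes of suffix 4 (232 cells) were high in these genes too, and without suffix 4 the class stood at 40.8 CPM of Plin2 (37.0 to 44.8), 45.6 of Lipa (41.6 to 49.9), 56.3 of Abcg1 and 5.93 of Pparg. Both Plin2 in Npnt or Slc7a10 fibroblasts (83.2 CPM, 59.7 to 113) and Lipa in other mesenchymal cells (70.7 CPM, 55.9 to 88.1) then lay above other leukocytes beyond the intervals.

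**Figure D2:**
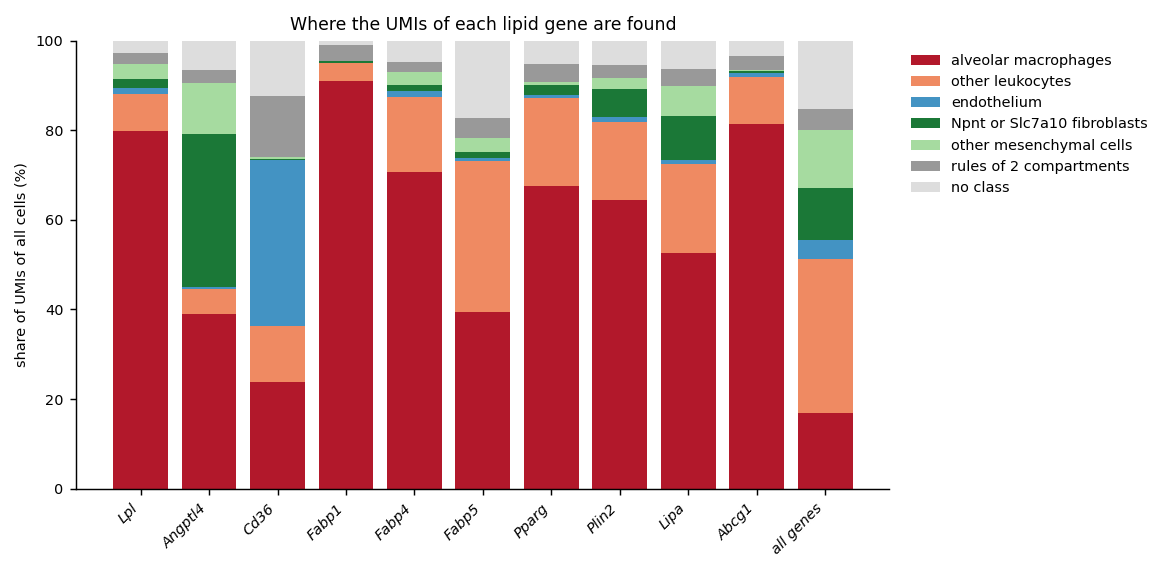
Share (%) of each gene's UMIs that lies in each class, and, in the last bar, the share of all UMIs of the table. Alveolar macrophages hold 16.8% of all UMIs but 91.0% of those of Fabp1 and 79.9% of those of Lpl, and the Npnt or Slc7a10 fibroblasts stand out for Angptl4 (34.1%).

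Alveolar macrophages were found under all 6 suffixes, and 5 suffixes held 66 to 439 of them. Across these 5, Plin2 was the steadiest gene, at 499, 442, 439, 537 and 494 CPM in suffixes 1 to 5, and Fabp5 the most variable, at 270, 176, 360, 533 and 219 CPM. Lpl was higher in suffixes 1 and 2 (2904 and 2828 CPM) than in suffix 3 (2298) and in suffixes 4 and 5 (1939 and 1933), beyond the counting intervals. In each of the 5 suffixes the macrophage level stood above the pooled level of the Npnt or Slc7a10 fibroblasts for every gene of the 10 but Angptl4, whose 5 values (41.1 to 69.5 CPM) were all below it. For Angptl4 the intervals of suffixes 2, 3 and 5 include the pooled fibroblast level.

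**Figure D3:**
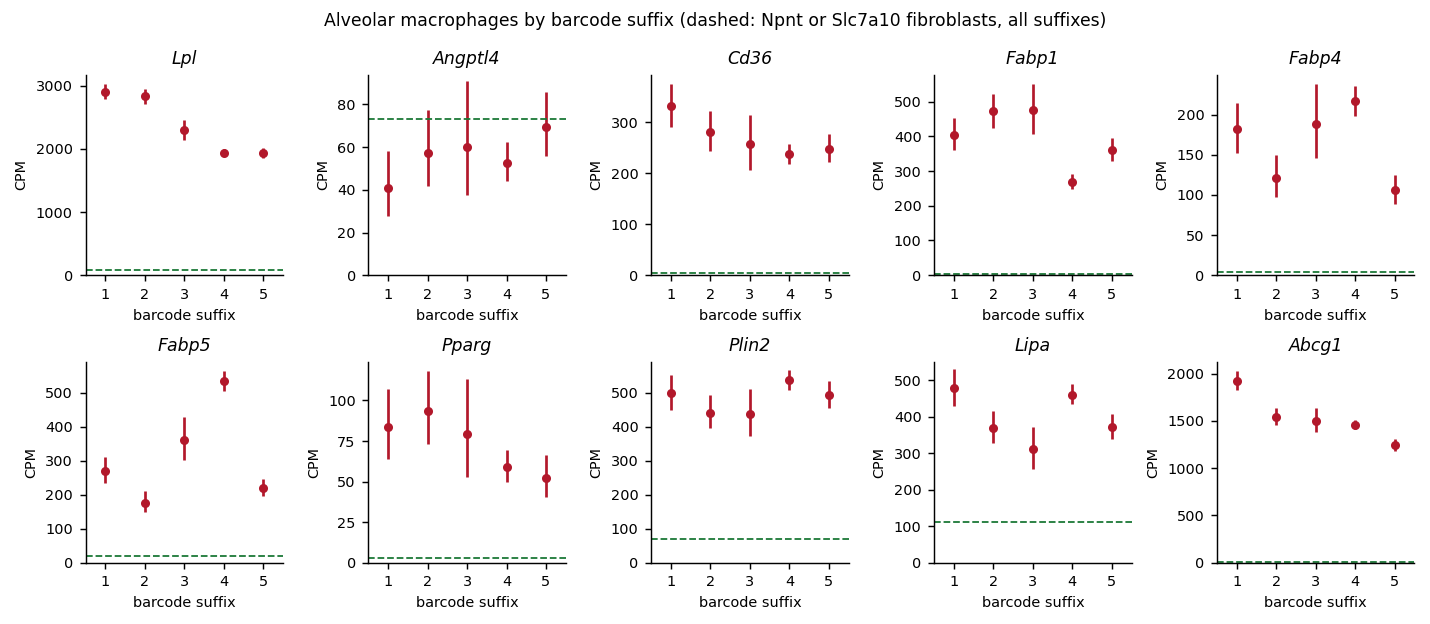
Level in alveolar macrophages (CPM) by barcode suffix for each gene, points with exact 95% Poisson intervals; the dashed line is the level of the Npnt or Slc7a10 fibroblasts over all suffixes. Plin2 spans 439 to 537 CPM and Fabp5 176 to 533 CPM. Angptl4 alone lies below the dashed line in all 5 suffixes, with intervals that include the line in suffixes 2, 3 and 5.

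Within the mesenchyme, 2 of the 10 genes separated the Npnt or Slc7a10 fibroblasts from other mesenchymal cells by 2-fold or more, Angptl4 and Plin2, and none was lower by that much; among 9255 genes, 5.1% were higher and 4.91% lower. Only 5 of the 10 genes reached 10 CPM in either class, so the other 5 could not be called. Angptl4 was 3.32-fold higher (2.63 to 4.22) and Plin2 2.90-fold higher (2.31 to 3.65) in the Npnt or Slc7a10 fibroblasts. Lipa was 1.57-fold higher (1.36 to 1.82). Lpl went the other way, at 0.681 of the other mesenchymal level (0.591 to 0.784), and so did Fabp5, at 0.506 (0.378 to 0.673). Fabp5 was not lower than in 3 of the named subclasses: the ratio was 1.3 (0.738 to 2.44) to ductal myofibroblasts, 1.06 (0.620 to 1.93) to adventitial fibroblasts and 1.38 (0.565 to 4.38) to Rbp4 fibroblasts, with intervals that include 1.

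The same directions were seen in both suffixes that hold 50 or more cells of each class. In suffix 1 Lipa stood at 97.2 against 63.6 CPM (27 and 60 UMIs) and Fabp5 at 10.8 against 16.95 CPM (3 and 16 UMIs). The intervals of these levels overlap for both genes, so their direction in suffix 1 is not beyond counting error. Angptl4 stood at 79.2 against 27.6 CPM in suffix 1 (22 and 26 UMIs, 2.88-fold, 1.55 to 5.28) and at 71.2 against 19.4 CPM in suffix 4 (3.67-fold, 2.78 to 4.91). Plin2 stood at 50.4 against 12.7 CPM in suffix 1 (14 and 12 UMIs, 3.96-fold, 1.70 to 9.38) and at 68.3 against 27.0 CPM in suffix 4 (2.53-fold, 1.98 to 3.27). Lpl was at 0.501 (0.264 to 0.882) and 0.693 (0.594 to 0.807) of the other mesenchymal level in suffixes 1 and 4. Suffix 4 holds most of these cells: with it left out, the Plin2 ratio was 5.17 and the Lpl ratio 0.477, which then passed the 2-fold rule. Fabp5 lay close to that rule and passed it in several alternatives.

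**Figure D4:**
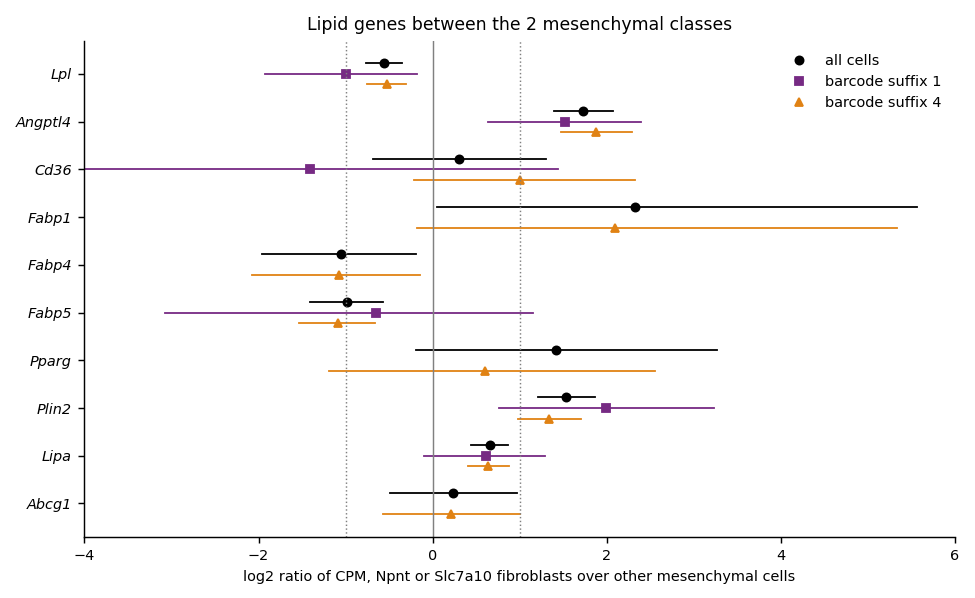
Ratio of CPM (log2 axis), Npnt or Slc7a10 fibroblasts over other mesenchymal cells, for all cells and within suffixes 1 and 4, with exact 95% intervals; dotted lines mark 2-fold, and points under 10 UMIs in all are left out. Angptl4 and Plin2 lie above 0 in all 3 sets and Lpl below 0 in all 3 (ratios of 3.32, 2.90 and 0.681 over all cells).

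Free RNA in the droplets can give UMIs in cells that do not make a transcript, so the fibroblasts were set against B, T and NK cells (1751 cells, median 2551 UMIs). In the Npnt or Slc7a10 fibroblasts Angptl4 was 39.0-fold, Lpl 17.2-fold, Plin2 7.65-fold (5.63 to 10.6) and Lipa 4.71-fold above these lymphocytes. Fabp1, Fabp4 and Fabp5 were at 1.34, 0.952 and 1.06 times the lymphocyte level, Pparg at 1.79 times (0.693 to 4.82), and Cd36 and Abcg1 at 0.316 and 0.233 times. For Fabp4 the comparison is not a background level, since 20 of the 24 lymphocyte UMIs came from 1 cell of suffix 4. Without suffix 4, lymphocytes held 0.780 CPM of Fabp4 (4 UMIs) and the fibroblasts 4.06 (2 UMIs), and Pparg was at 1.56 (8 UMIs) and 8.12 CPM (4 UMIs). The intervals of the single levels overlap for both genes. Such overlap does not decide whether the fibroblasts exceed the lymphocytes there. Over all suffixes, Fabp1 and Pparg did not exceed the lymphocyte level in the fibroblasts beyond counting error, and Cd36 and Abcg1 were below it. Of the 85 lymphocyte UMIs of Cd36, 65 came from B cells. A lymphocyte level above that of the fibroblasts cannot serve as their background, so whether Cd36 and Abcg1 exceed background in the fibroblasts is not decided. The Fabp5 ratio does not rest on a background level either. Of its 91 lymphocyte UMIs 50 came from suffix 4, and 1 cell held 26. With that suffix left out, lymphocytes held 7.999 CPM of Fabp5 (5.74 to 10.85) and the fibroblasts 10.15 (3.296 to 23.69, 5 UMIs). These intervals overlap, so whether Fabp5 exceeds background in the fibroblasts is not decided. After thinning, Pparg was seen in 4 of 1133 Npnt or Slc7a10 fibroblasts (0.353%, 0.0963 to 0.901%) and in 6.64% of alveolar macrophages, and Plin2 in 7.86% (6.36 to 9.58%) against 2.14% of other mesenchymal cells, 1.12% of B cells and 1.32% of T cells. Lipa, thinned the same way, was in 12% against 6.36%, and Lpl in 6.62% against 9.84%. Without thinning, the shares in the Npnt or Slc7a10 fibroblasts and in other mesenchymal cells were 1.06% and 0.357% for Pparg, 20.6% and 7.13% for Plin2, and 29.9% and 17.9% for Lipa. Suffix 4 holds 947 of the fibroblasts but only 59 of the lymphocytes. In suffix 4 alone, lymphocytes and Npnt or Slc7a10 fibroblasts held 90.9 (55.5 to 140) and 111 CPM (100.3 to 123) of Lipa and 50.01 (25.0 to 89.5) and 68.3 CPM (59.9 to 77.6) of Plin2, with intervals that overlap. These lymphocyte levels rest on 20 Lipa UMIs in 13.56% and 11 Plin2 UMIs in 8.475% of the 59 cells. The intervals do not cover such clustering, so the overlap does not decide whether the fibroblasts exceed background there. Lpl there stood at 27.3 (10.0 to 59.4) against 84.7 CPM (75.3 to 94.9), Angptl4 at 0 (up to 16.8) against 71.2, and Fabp5 at 227 against 19.2 CPM. Without suffix 4, Plin2 was at 7.41 (5.25 to 10.2) in lymphocytes against 83.2 CPM (59.7 to 113) in the fibroblasts, and Lipa at 20.9 (17.1 to 25.2) against 118 CPM (89.4 to 152).

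Against named mesenchymal subclasses, each drawn by 2 of 3 marker genes, the Npnt or Slc7a10 fibroblasts held more Plin2 than all 4 that reached 50 cells. The ratio was 5.81 (3.34 to 11.1) to 429 ductal myofibroblasts (Hhip, Aspn, Fgf18), 2.92 to 279 adventitial fibroblasts (Pi16, Scara5, Ccl11), 2.23 (1.26 to 4.37) to 94 fibroblasts with Rbp4, Adam23 or Col15a1, and 2.03 (1.12 to 4.12) to 56 mesothelial cells (Upk3b, Wt1, Msln). Angptl4 was 5.23-fold above ductal myofibroblasts, 3.17-fold above adventitial and 1.74-fold (1.05 to 3.08) above Rbp4 fibroblasts; mesothelial cells held 1 UMI. Lpl did not differ from ductal myofibroblasts beyond counting error (0.996, 0.783 to 1.28) and stood at 0.505 and 0.503 of the adventitial and Rbp4 levels of 159 and 160 CPM. Mesothelial cells carried most of the Fabp5 of other mesenchymal cells, 87 of 158 UMIs at 273 CPM, and 16 of the 39 Fabp4 UMIs.

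Few fibroblasts held 2 or more of the genes once cells were thinned, and joint detection depends on depth and on the level of each gene. Alveolar macrophages held a median of 6 of the 10 genes per cell. After thinning to 1000 UMIs, 91.9% of them (90.1 to 93.5%) held 2 or more of the 10, against 4.59% (3.45 to 5.98%) of Npnt or Slc7a10 fibroblasts, 2.51% (1.75 to 3.50%) of other mesenchymal cells and 0.623% and 0.529% of B and T cells. Without thinning these shares were 99.7%, 26.6%, 15.3%, 2.22% and 4.21%. Among thinned Npnt or Slc7a10 fibroblasts, the 89 with Plin2 held Lpl in 3.37% (0.701 to 9.54%), Angptl4 in 7.87% and Lipa in 14.6%, and the 1044 without Plin2 held them in 6.90%, 6.42% and 11.8%; the intervals overlap for all 3. Pparg was too sparse to compare, with 4 of 234 fibroblasts with Plin2 (1.71%) and 8 of 902 without it (0.887%) holding a UMI before thinning. Tcf21 was in 44.9% (34.4 to 55.9%) of the 89 and in 35.2% (32.3 to 38.1%) of the others. After thinning, the intervals thus overlap for each of these genes between fibroblasts with and without Plin2. Without thinning, Tcf21 was in 72.2% (66.0 to 77.9%) of 234 fibroblasts with Plin2 and in 62.2% (58.9 to 65.4%) of 902 without it, and 26.1% (20.6 to 32.2%) and 17.1% (14.7 to 19.7%) held Angptl4, with intervals apart for both genes and median depths of 3411.5 and 3040 UMIs.

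Outside the mesenchyme, subclasses gave the widest contrasts. In endothelium, Lpl was at 249 CPM (196 to 313) in 120 general capillary cells (Kit, Aplnr, Plvap), 48.1 (26.3 to 80.8) in 101 aerocytes (Car4, Ednrb, Apln) and 11.3 (2 UMIs) in 70 large-vessel cells, a ratio of 5.18 (2.90 to 9.93) between the capillary types. Gpihbp1, the protein that holds the lipase on capillary walls, was at 1062, 141 and 473 CPM in the same order. Cd36 was high in all 3, at 1928, 1592 and 1244 CPM. Fabp4 was found in the large vessels at 90.1 CPM (16 UMIs in 6 cells) and had no UMI in general capillary cells, which allows up to 12.4 CPM. The endothelial class also held 907 CPM of the type II cell gene Sftpc and 114 CPM of the B cell gene Cd79a; the part of such RNA in these levels was not tested.

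**Figure D5:**
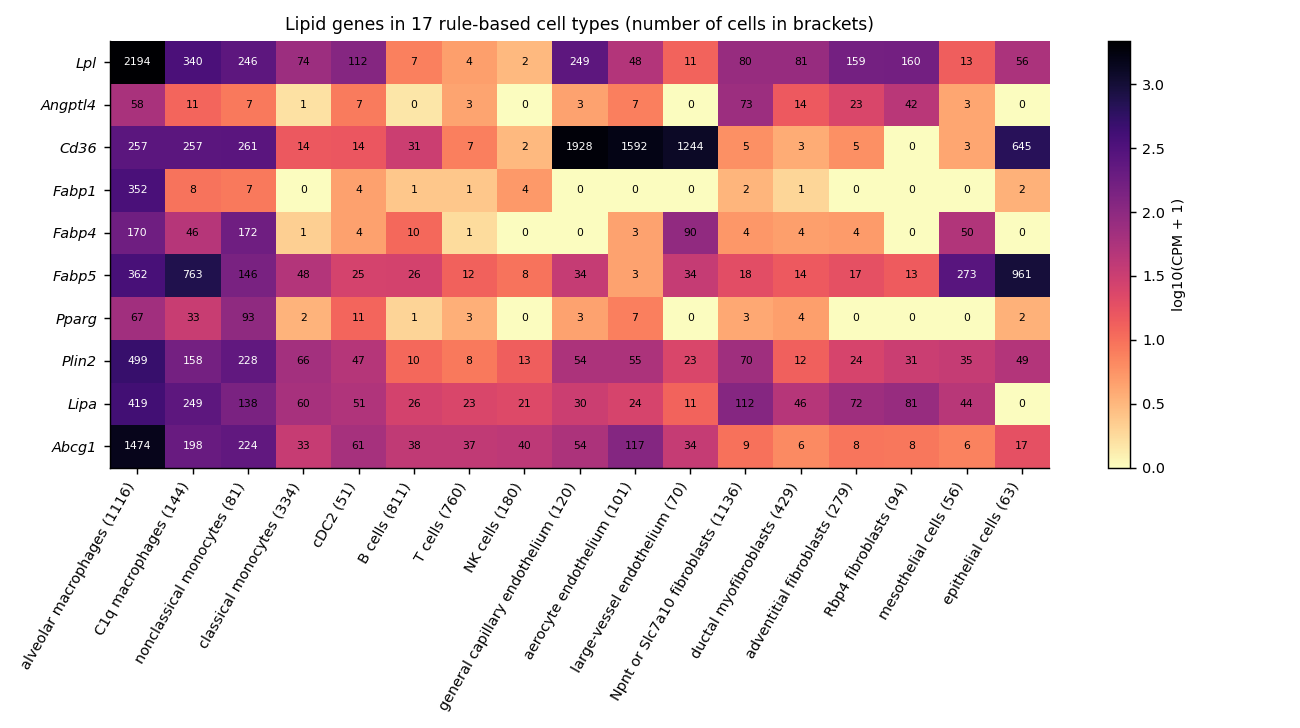
Level of the genes in 17 rule-drawn cell types, with the CPM printed in each field, colour as log10(CPM + 1) and the number of cells in brackets. The column of alveolar macrophages is dark for nearly every gene, Cd36 is dark in the 3 endothelial types (1244 to 1928 CPM), and Fabp5 is highest in barcodes with epithelial markers (961 CPM).

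Among other leukocytes, 191 cells held 1 of the 3 macrophage markers and had 829 CPM of Lpl and 561 of Abcg1, against 44.5 and 48.4 CPM in the 3094 cells with none, so that 829 of the 1307 Lpl UMIs of the class came from cells just outside the macrophage rule. Nonclassical monocytes (Ace, Treml4, Fcgr4; 81 cells), the patrolling monocytes of vessels, had 93.3 CPM of Pparg (60.4 to 138), 172 of Fabp4, 261 of Cd36 and 228 of Plin2. In their 66 cells without a macrophage marker these were 92.6 (54.9 to 146), 165, 309 and 196 CPM, while Lpl was down to 1 UMI and Fabp1 to none. Classical monocytes (Ly6c2, Ccr2, F13a1; 334 cells) held 2.34 CPM of Pparg, 1.17 of Fabp4 (2 UMIs) and 14.0 of Cd36, which put Pparg 39.9-fold (13.8 to 158) and Cd36 18.6-fold (11.6 to 30.9) higher in the nonclassical cells. Macrophages with C1q genes (144 cells) held 763 CPM of Fabp5, 2.11-fold the alveolar macrophage level, but 575 of their 633 UMIs came from suffix 4, and without it the level was 130 CPM (98.6 to 168). Their Cd36 level, 257 CPM, did not differ from that of alveolar macrophages beyond counting error (ratio 0.998, 0.860 to 1.15), with Lpl at 340 and Plin2 at 158 CPM, which without suffix 4 were 208 and 96.2 CPM.

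Other genes of lipid metabolism were read from 5 lists, and reported lipofibroblast markers beyond the 10 from a sixth; a gene counts as measured at 10 CPM in either class. Of all 9255 genes measured in the Npnt or Slc7a10 fibroblasts or other mesenchymal cells, 5.1% were higher by 2-fold in the former and 4.91% lower. Between these classes, 4 of 13 measured uptake genes were higher by 2-fold and 1 lower, with a median log2 ratio of 0.42 against 0.01 over all genes. Among them were Slc27a3, an acyl-CoA synthetase of the fatty acid transport family (5.47-fold, 50.8 against 9.28 CPM), the binding protein Fabp3 (9.01-fold, 18.4 against 2.04 CPM) and Angptl8, a partner of the lipase inhibitors (4.998-fold, 45 and 10 UMIs), with the HDL receptor Scarb1 lower (0.404). Of 9 droplet genes 3 were higher and none lower (median 0.41): G0s2, an inhibitor of triglyceride breakdown, was 5.40-fold higher (1354 against 251 CPM), Fitm2 3.09-fold and Gpam 2.19-fold. No gene of 11 for lipolysis and oxidation passed in either direction (median 0.15), with Acadm, Mgll and Hadha at 78.7, 55.6 and 50.04 CPM in the Npnt or Slc7a10 fibroblasts. Of 12 lysosomal and efflux genes only Apoc1 passed (3.45-fold), and Apoe, the most abundant, stood at 2141 and 2105 CPM (1.02-fold, 0.987 to 1.05).

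Of 9 fat cell transcription factors none was higher by 2-fold, and Ebf1 was lower (44.0 against 215 CPM, ratio 0.205). Over all genes 5.1% were higher and 4.91% lower, so these counts are near the share of all genes. The median log2 ratio of the 9 was -0.33, and Cebpb, at 1074 against 810 CPM, was 1.33-fold higher. Of 9 other reported lipofibroblast markers 7 were higher and none lower, with a median log2 ratio of 2.43: Wnt2 18.7-fold, Itga8 10.8-fold, Ces1d 6.47-fold, Limch1 6.34-fold, G0s2 5.40-fold, Tcf21 4.62-fold and Fgf10 2.07-fold. Lepr (1.34) and Pth1r (0.847) did not pass. G0s2 and Tcf21 were also higher within suffix 1 (3.65 and 3.99-fold) and within suffix 4 (5.41 and 4.79-fold). Wnt2, Itga8, Ces1d and Limch1 were likewise higher by 2-fold in both suffixes. Fgf10 was 2.66-fold higher in suffix 4 but 1.47-fold (0.892 to 2.37) in suffix 1, under the rule and with an interval that includes 1. As these markers were reported for such fibroblasts, their count is not independent evidence of its direction.

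Between alveolar macrophages and the Npnt or Slc7a10 fibroblasts, 9 of the 10 genes were higher by 2-fold in the macrophages and none lower, where 20.2% of 9845 genes were higher and 27.6% lower. The ratio ran from 3.74 for Lipa and 7.11 for Plin2 to 156 for Fabp1 and 168 for Abcg1, and Angptl4 was at 0.790. Fibroblast levels near 0 make the larger ratios unsteady: without suffix 4 they were 47.0 for Lpl, 134 for Cd36, 9.02 for Pparg and 366 for Abcg1, and with 10 CPM added to both sides they were 17.8 for Cd36, 12.6 for Fabp4, 13.2 for Fabp5, 5.93 for Pparg, 29.5 for Fabp1 and 79.0 for Abcg1; after thinning they were 413 for Fabp1 and 60.5 for Fabp4. The lists did not move as a block: of 14 measured uptake genes 4 were higher and 5 lower, of 11 droplet genes 4 and 4, and of 12 oxidation genes 5 and 1. Droplet genes divided by cell, with Cidec, a droplet fusion protein, at 168 CPM in macrophages and 0.754 in the fibroblasts (3 UMIs), Lpin1 and Soat1 7.66 and 6.07-fold higher in macrophages, and G0s2 at 21.2 CPM in macrophages against 1354 in the fibroblasts. Cpt1a, an enzyme of fatty acid oxidation, was 5.47-fold higher in macrophages, and hormone-sensitive lipase Lipe was at 0.224. The lysosomal phospholipase Pla2g15 was 5.70-fold higher and Apoe at 0.108, and of the transcription factors Cebpa was 16.2-fold higher in macrophages and Klf15 at 0.0102. The reported lipofibroblast markers were lower in macrophages in 8 of 9 cases; Lepr, at 125 against 72.9 CPM, was the exception.

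Over 17 cell types of 50 or more cells, the genes of most similar pattern were sought by Pearson correlation of log2(CPM + 10) among 7277 genes. The result is a description only, over types from the same pooled table that differ in their make-up by suffix. Nearest to Fabp1 were Cidec, Wfdc10 and Fpr1 (r of 0.982, 0.979 and 0.978), and nearest to Pparg were Cd300ld, Lilra5 and Ear2 (0.949, 0.947 and 0.942). Lpl was nearest to Picalm, Snx27 and Atp6ap2 (0.921 to 0.857), Cd36 to Smagp, Casz1 and Dram2 (0.934 to 0.908), and Angptl4 to Fblim1, Adarb1 and Clmp (0.898 to 0.868). Plin2 was nearest to Tmem14c, Furin and Atp6v0b (0.908 to 0.886), Lipa to Pla2g15, Axl and Abcd2 (0.895 to 0.855), and Abcg1 to Klhdc4, Mob1a and Nipa2 (0.895 to 0.891). Fabp5 was nearest to Syngr1, Dnase2a and Soat1 (0.878 to 0.832), and Fabp4 to Myo7a, Bst1 and Cd274 (0.830 to 0.817). Among the 10 genes themselves the closest pairs were Pparg with Plin2 and with Abcg1 (0.85 each) and Lpl with Plin2 (0.83), and the least alike were Angptl4 and Cd36 (-0.25).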

How the data were processed

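The deposited table holds whole UMI counts, not normalized, of 27998 genes in 10410 barcodes; per the submitters' processing notes STAR 2.5.1, Cell Ranger 1.3.0 and the mm10 genome were used. The authors' normalized table is a linear signal in which each barcode is scaled to 2631.5 UMIs (largest gap to rescaled counts 5.15e-14), and adds no information. Columns of other samples numbered 0. The cell filter required 500 genes and no more than 10% of UMIs from mitochondria (9994 barcodes passed), and 75 doublets (0.75%) called by Scrublet (scanpy 1.11.5), run per suffix, were removed.

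UMIs were summed per class. Levels have Poisson, ratios conditional binomial and shares Clopper-Pearson intervals, exact at 95% (scipy 1.17.1). With 1 pooled sample there is no test: a call is a ratio of 2 at 10 CPM or more in either class. The scripts were tested on simulated counts with known folds. Cells were thinned to 1000 UMIs for shares; shallower cells left out numbered 17 alveolar macrophages, 56 other leukocytes, 66 endothelial cells, 3 Npnt or Slc7a10 fibroblasts and 50 other mesenchymal cells. All 10 genes are named; from each list the 3 most abundant and the 2 with the largest ratio each way could be named, the others past 2-fold were named after their values were seen, as were the single suffixes. Of 76 genes in the lists 75 were in the table (Cebpd was not matched, and G0s2 is in 2 lists); some list genes are counted but not reported here by name. The genes, classes, subclasses and lists were chosen with earlier results of these data known. Alternatives changed 1 class rule, filter, scaling or suffix at a time.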

Additional observations from a re-analysis of the deposited data

Results flagged for a closer look

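Signal of 5 of the genes stood outside the 5 classes, in 63 barcodes that met no class rule and held at least 2 of the epithelial genes Epcam, Cdh1 and Cldn7 (above the floor of 3 UMIs). There Fabp5 was at 960.8 CPM (868 to 1060), above its level in alveolar macrophages, and Cd36 at 644.6 CPM (569 to 727). Lpl was at 55.95 CPM (23 UMIs), Plin2 at 48.65 CPM (20 UMIs) and Abcg1 at 17.03 CPM (7 UMIs), the last below the 37.8 CPM of B, T and NK cells. The Fabp5 UMIs were spread over 49 of the 63 barcodes, and without suffix 4 the level was 956 CPM. Angptl4, Fabp4 and Lipa had no UMI there, and Fabp1 and Pparg 1 UMI each.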

How the results depend on the processing

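Over 19 alternatives, Angptl4 and Plin2 were the 2 genes higher by 2-fold in Npnt or Slc7a10 fibroblasts each time, and 9 genes stayed higher in alveolar macrophages. The genes highest in alveolar macrophages numbered 7 or 8, Fabp5 being lost without suffix 3 and with 1000 genes and at most 5% mitochondrial UMIs required. Genes lower by 2-fold in Npnt or Slc7a10 fibroblasts, 0 as reported, numbered 3 with 2 or more Ptprc UMIs required (Cd36, Fabp4 and Fabp5), 2 without suffix 4 (Lpl and Fabp5), and 1, Fabp5, with 2 or more Npnt plus Slc7a10 UMIs, with no cell filter, with doublets kept and without suffix 1; the cause was not tested. Of 376 single ratios 347 stayed within their interval, 29 left it and 0 of those called changed direction. A further 4 gave no value because a class held no UMI. The count of 347 includes ratios that could not move: the 50 CPM minimum changes only which genes can be called. Centring on the median ratio multiplies all ratios of a comparison by the same factor. Plin2 ran from 2.34 to 5.17 and Angptl4 from 2.59 to 3.70 between the mesenchymal classes. Ratios of Fabp1, Cd36 and Abcg1 between those classes, all under 10 CPM, lay on both sides of 1 across alternatives. No paired analysis was possible because each gate and day has 1 sample and barcodes are not tied to samples. Depth limits Pparg, Fabp1, Fabp4, Cd36 and Abcg1 in mesenchymal cells, each with 39 or fewer UMIs per class.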
